A study of Arabidopsis thaliana with 12 samples.

Results

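AT2G23070 encodes the alpha subunit of the plastid form of casein kinase 2 (CK2), which the RefSeq gene table lists as CKA4 and CK2 alpha cp. It was measured on 12 expression arrays of Arabidopsis thaliana total RNA, ecotype Columbia 0, of which 6 are titled stn7stn8, a double mutant that lacks the thylakoid protein kinases STN7 and STN8, and 6 are titled WT, the wild type. The gene is represented by 1 of the 3439 rows of the table, and by 1 of the 692 rows whose platform annotation names a single gene. No row names it together with other genes. AT2G23070 was chosen because its signal differed between the genotypes on these same arrays. Its difference is therefore given as a description, without a test.

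CK2 is a constitutively active serine/threonine kinase that prefers target sites surrounded by acidic residues. In plants its catalytic alpha subunits act mainly in the nucleus and cytosol, but 1 of them carries a transit peptide and is imported into the plastid. There it was described in mustard as a kinase bound to the plastid RNA polymerase, and sigma factors and RNA-binding proteins of the plastid are among its known substrates. STN7 and STN8 belong to another kinase family and act on thylakoid membrane proteins: STN7 on the light-harvesting antenna during state transitions, STN8 on the core of photosystem II.

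The genotypes were read from the titles alone, because the label for the RNA source reads WT for all 12 of them. No allele of either mutation, organ, age or growth condition is given in the sources used here, nor whether replicates were separate plants. The p-values below therefore compare a difference between genotypes only with the variation among these arrays, and that variation may be technical. Replicates 4 and 5 of stn7stn8 held identical values and were counted once, as replicate 4, which left 5 distinct stn7stn8 arrays and 6 WT arrays. Array totals lay between 3586 and 3682. The median log2 intensity of an array, however, was higher in stn7stn8 (-0.96 ± 0.024, SD, n = 5) than in WT (-1.50 ± 0.13, SD, n = 6), and quantile normalization was used to place the arrays on 1 scale. No row with a single gene name stood for STN7 or STN8, so the genotypes could not be checked on their own transcripts. Of 10 genes listed for green tissue 2 had a measured row, and of 4 genes listed for root 0 did, so the tissue is not identified by these markers.

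As deposited, the intensity of AT2G23070 was 0.120, 0.133, 0.139, 0.184 and 0.206 in stn7stn8 replicates 1, 2, 3, 4 and 6. In WT replicates 1 to 6 it was 0.326, 0.293, 0.378, 0.364, 0.306 and 0.237. Every stn7stn8 array lay below every WT array, and the ranges were closest between stn7stn8 replicate 6 and WT replicate 6. Across all rows measured in every array, 13.4% lay entirely lower in stn7stn8 after normalization. The mean deposited intensity was 0.157 ± 0.037 in stn7stn8 (SD, n = 5) and 0.317 ± 0.051 in WT (SD, n = 6), a ratio of 0.493. No array listed the gene at 0, whereas between 145 and 192 rows per array were at 0.

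After quantile normalization the log2 intensities of AT2G23070 were -3.30, -3.06, -3.20, -2.84 and -2.70 in stn7stn8 replicates 1, 2, 3, 4 and 6. The WT values were -1.35, -1.49, -1.31, -1.36, -1.31 and -1.67 in replicates 1 to 6. A gap of 1.03 on the log2 scale separated the highest stn7stn8 array from the lowest WT array. The group means were -3.02 ± 0.25 in stn7stn8 (SD, n = 5) and -1.41 ± 0.14 in WT (SD, n = 6). Their difference was -1.61 ± 0.12 on the log2 scale (SE from the limma model), so that the stn7stn8 signal stood at 0.328 of the WT signal.

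**Figure D1:**
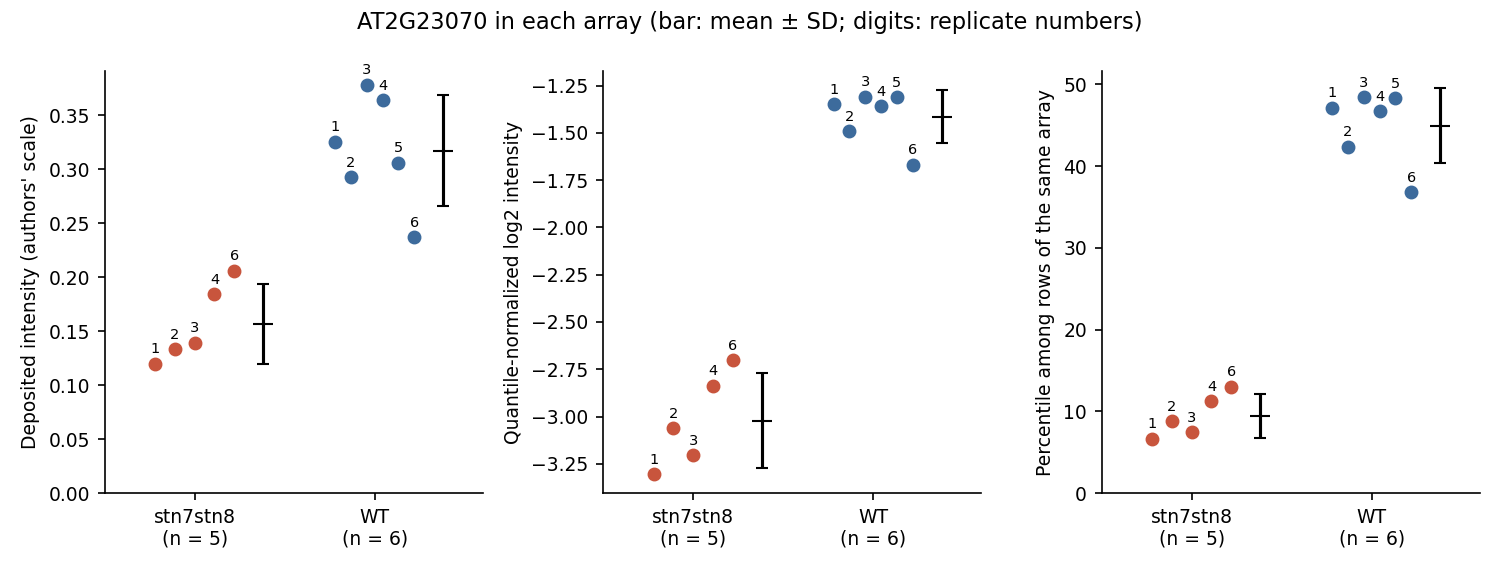
Signal of AT2G23070 in each array, as deposited intensity on the authors' scale (left), as quantile-normalized log2 intensity (middle) and as the percentile among the rows of the same array (right). Points are arrays numbered by replicate and bars are mean ± SD for stn7stn8 (n = 5) and WT (n = 6), and in each panel all stn7stn8 arrays sit below all WT arrays, from 6.68 to 13.0 against 36.8 to 48.4 on the percentile scale.

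The position of the gene within each array's own ranking of signals does not depend on how arrays are scaled against each other, as long as the scaling keeps the order of the rows. Among the rows above 0 on the same array, AT2G23070 was at the 6.68, 8.76, 7.45, 11.2 and 13.0 percentile in stn7stn8 replicates 1, 2, 3, 4 and 6. In WT replicates 1 to 6 it was at the 47.1, 42.4, 48.4, 46.7, 48.3 and 36.8 percentile. The kinase transcript thus gave a signal slightly below the middle of the array in WT and near its lower end in stn7stn8. Among rows with 1 gene name the mean percentile was 10.1 ± 3.03 in stn7stn8 (SD, n = 5) and 49.9 ± 4.62 in WT (SD, n = 6). Spots differ in how strongly they hybridise, so these positions rank signals and not transcript amounts. The table holds no background or detection flag, and how far the stn7stn8 signals lay above background is not known.

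Replicates spread to a similar degree as those of other rows. The SD of the normalized log2 intensity was 0.25 in stn7stn8, at the 61.4 percentile of all tested rows, whose median SD was 0.21. In WT it was 0.14, at the 25.0 percentile, with a median of 0.21 over the rows. WT replicate 6 was the lowest WT array, 0.18 below the next on the log2 scale. The remaining 5 WT arrays spanned 0.18. Within stn7stn8, replicates 4 and 6 were the highest, and replicate 1 the lowest.

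The direction was the same under every scaling of the arrays, but the size was not. The log2 difference was -1.03 on the deposited values, where the median over all tested rows was 0.50, and -1.57 with each array centred on its median, where the median over rows was -0.034. Cyclic loess gave -1.69 with a median of 0.021, and quantile normalization -1.61 with a median of 0.058. Measured from the median of all rows, the difference of the gene lay between -1.71 and -1.54 on the log2 scale under these 4 scalings. The deposited values and the centred arrays both gave -1.54. Centring shifts the difference of every fully measured row by the same amount, so these are a single estimate. When the median intensity of each array was added before the log2 step, which compresses differences between dim signals, the log2 difference was -0.58 and the ratio of stn7stn8 to WT was 0.670.

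**Figure D2:**
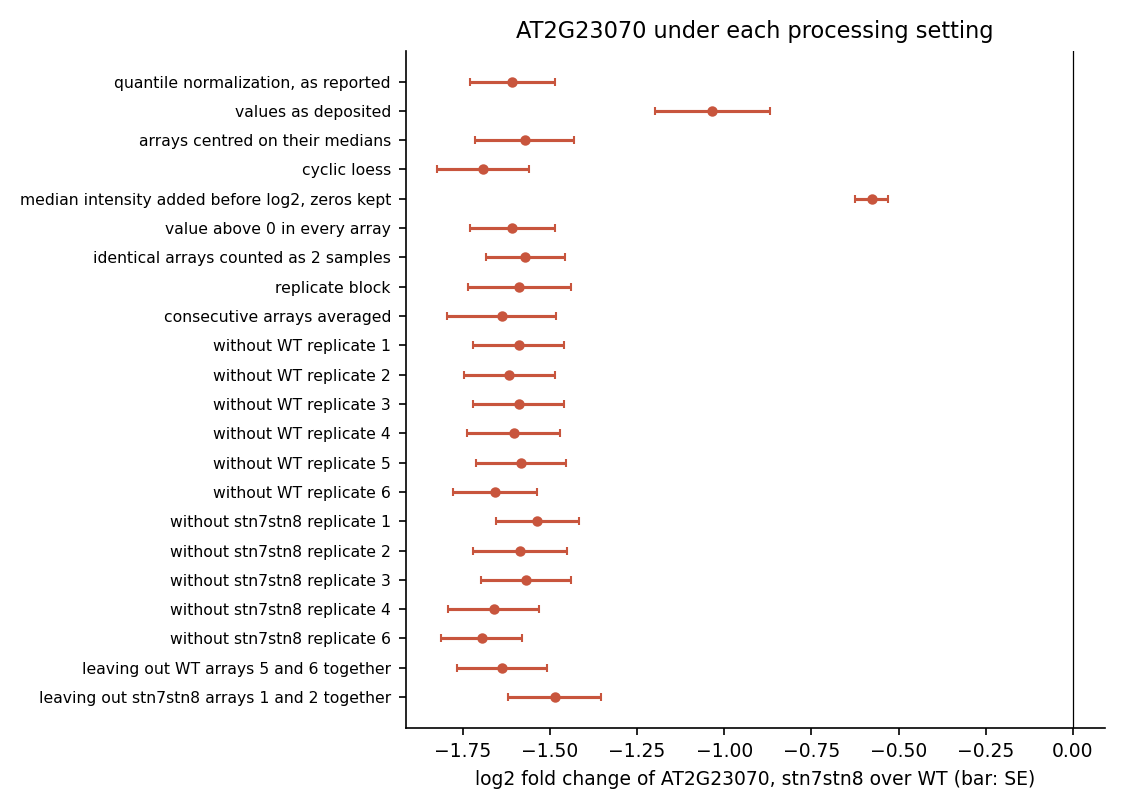
The log2 fold change of AT2G23070, stn7stn8 over WT, under quantile normalization and 21 alternative settings, with bars for the SE of the model. All estimates lie below 0, and those on the deposited values (-1.03) and with the median intensity added (-0.58) lie closest to it.

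Among the 645 tested rows with 1 gene name, AT2G23070 had the third lowest fold change, and among all 3229 tested rows it ranked 26. Of the 3229 rows, limma called 43.3% different between the genotypes at an adjusted p under 0.05 (Benjamini-Hochberg over all tested rows), 23.7% higher and 19.6% lower in stn7stn8. AT4G13550 and AT1G62780 had larger decreases, and both gave less signal than the kinase gene in WT. For AT4G13550 the mean log2 intensity was -4.26 ± 1.06 in stn7stn8 and -2.18 ± 0.23 in WT (SD, n = 5 and 6), a difference of -2.08. For AT1G62780 it was -5.06 ± 2.11 in stn7stn8 and -3.43 ± 0.27 in WT (SD, n = 4 and 6), a difference of -1.63, which became -0.58 without stn7stn8 replicate 3. The stn7stn8 arrays spread more widely in both of these rows than in AT2G23070. The fourth lowest, AT5G14910, had a difference of -1.38 ± 0.61 (SE from the limma model). Neither AT5G14910 nor AT1G62780 was among the rows that limma called different. On the deposited values and with centred arrays, which order fully measured rows alike, the kinase gene ranked 7 among named rows. With the median intensity added it ranked 16.

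**Figure D3:**
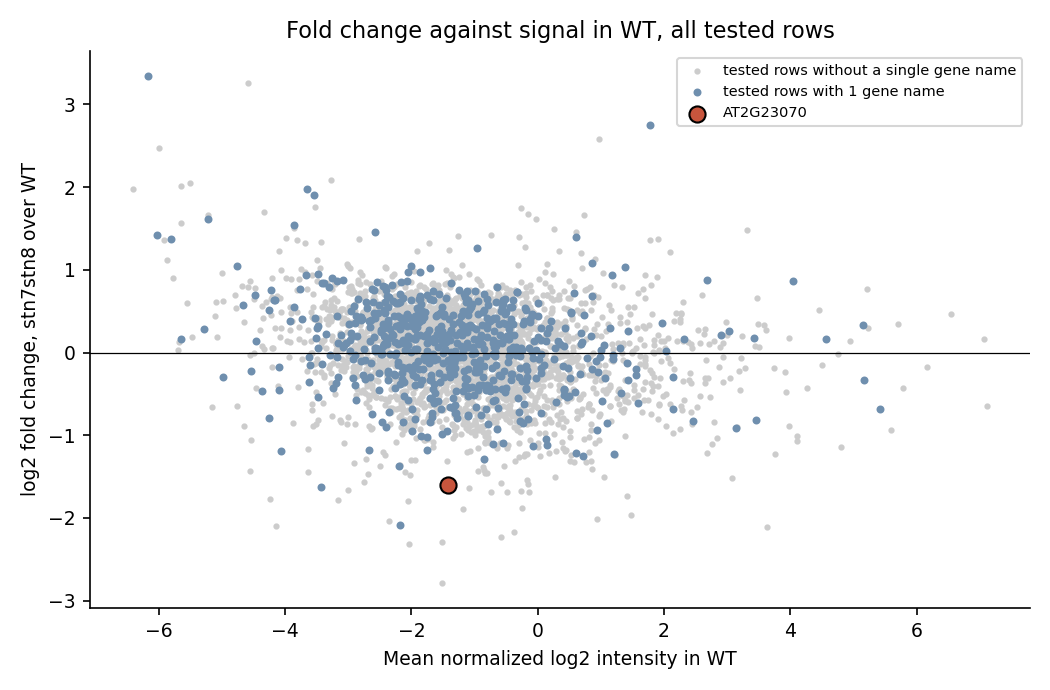
Log2 fold change, stn7stn8 over WT, against the mean normalized log2 intensity in WT for the 3229 tested rows, with the 645 rows of 1 gene name in blue. AT2G23070 lies at -1.41 on the horizontal axis, in the densest part of the signal range, and at -1.61 on the vertical axis.

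Rows with nearly the same WT signal as AT2G23070 had smaller differences, in both directions. The 3 named rows just above it in WT were AT5G43770, AT1G67930 and AT2G31920, with log2 differences of 0.41, -0.18 and 0.23. The 3 just below it were AT1G15410, AT4G15840 and AT2G29180, with -0.094, -0.10 and -0.95. All 6 stood between -1.44 and -1.40 in WT, and in stn7stn8 they stood between -2.39 (AT2G29180) and -0.998 (AT5G43770), against -3.02 for the kinase gene. On the deposited values, where the median over all rows was 0.50, AT1G67930, AT1G15410 and AT4G15840 were higher in stn7stn8. The 6 rows were picked by their WT values, whereas AT2G23070 was chosen for its difference. Smaller differences in the 6 rows were thus likely beforehand, and the contrast is given as a description.

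Profiles were compared between genes after each gene was centred on its mean over the 11 distinct arrays, with the root mean square difference from AT2G23070 as the measure of likeness. Of 644 other named rows, the closest was AT2G38550, with a difference of 0.25 on the log2 scale, followed by AT2G04700 with 0.29 and AT3G26580 with 0.30. AT3G57630 and AT2G46630 came next, both with 0.34. The median over all 644 rows was 0.92, and 5% of them were below 0.53. AT2G04700 is the catalytic subunit of ferredoxin-thioredoxin reductase, which passes electrons from ferredoxin to plastid thioredoxins.

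After quantile normalization these 5 genes had log2 differences between -1.25 (AT3G57630) and -1.12 (AT2G46630), smaller than that of the kinase gene, but this order depended on the scaling. AT3G26580 had the larger decrease on the deposited values (-1.08 against -1.03 for AT2G23070) and with centred arrays (-1.62 against -1.57). Centring shifts both rows by the same amount, so these comparisons are a single result. With the median intensity added, all 5 had larger decreases, from -0.97 (AT3G26580) to -0.70 (AT2G04700), than AT2G23070 at -0.58. Their signals were brighter: their WT means lay between the 81.2 and 93.4 percentile of the tested rows, and AT2G23070 at the 44.6. The measure counts the difference between genotypes together with the variation within them. Because the 5 genes were picked by it on these same arrays, decreases in them were likely beforehand and are given as a description. Within genotypes the order of the arrays was shared in part. WT replicate 6, the lowest WT array of AT2G23070, was the second highest of AT3G57630 (0.995) and of AT3G26580 (1.37). In AT2G38550, the closest profile, WT replicate 6 (0.374) was next to the lowest, WT replicate 5 (0.370). The stn7stn8 replicates 1 and 3, the lowest for the kinase gene, were also the lowest for AT2G38550, at -0.81 and -0.82. In AT2G46630 stn7stn8 replicate 6 was the lowest, at -1.23.

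**Figure D4:**
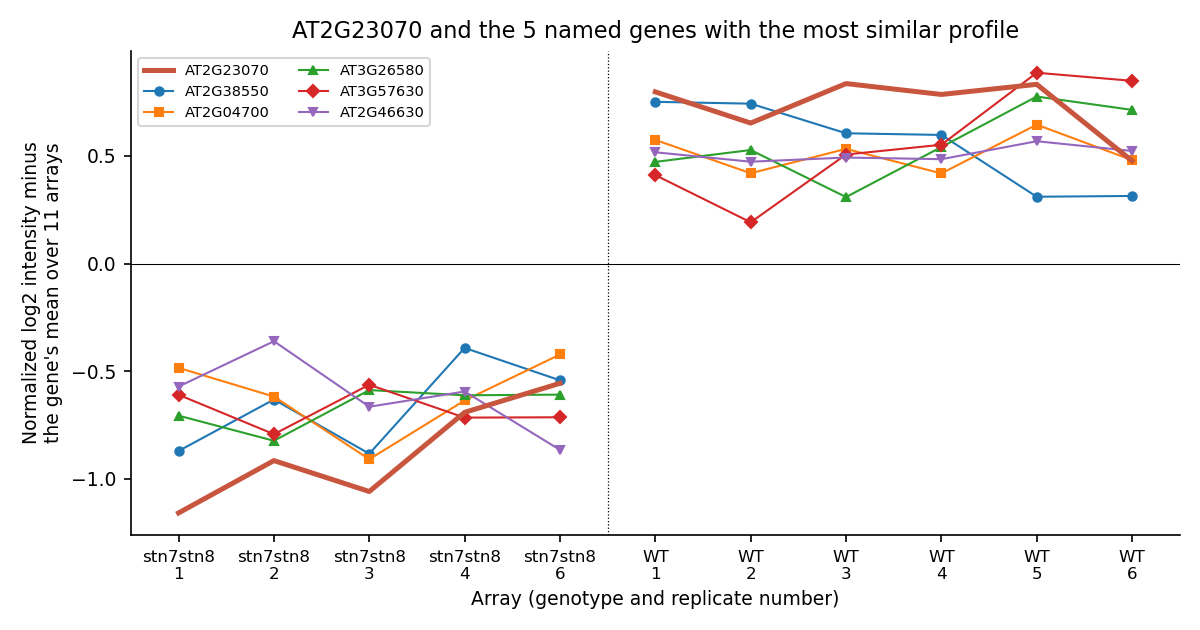
Normalized log2 intensity of AT2G23070 (thick line) and of the 5 named genes with the most similar profile, each minus its own mean over 11 arrays, for 5 stn7stn8 arrays and 6 WT arrays. All 6 genes lie below their mean in every stn7stn8 array and above it in every WT array, and AT2G23070 reaches lowest, in stn7stn8 replicate 1. The 5 genes were picked for their likeness to AT2G23070 on these same arrays, so this split was likely beforehand.

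Few genes around the kinase could be measured. Of 8 genes for CK2 subunits, which comprise 4 catalytic alpha and 4 regulatory beta subunits, AT2G23070 was the only one with a row of its own. CKA3, another alpha subunit, is the next gene on the chromosome in the RefSeq table and had none, so whether the spot also detects its transcript was not tested. None of the 20 genes flanking AT2G23070, 10 on either side, had a row with a single name. The same held for 7 chloroplast kinases and phosphatases including STN7 and STN8, 6 plastid sigma factors, 13 proteins associated with the plastid-encoded RNA polymerase, and 9 genes of abscisic acid and plastid signalling.

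Chloroplast ribonucleoproteins bind, process and stabilise plastid transcripts, and a spinach member of this family is a known substrate of the plastid CK2. Of 10 listed, 2 were tested and 0 passed in either direction (limma, where 43.3% of all rows passed, and 0 of the 2 had an unadjusted p under 0.05). AT4G09040 had normalized log2 intensities of -1.94, -0.83, -1.29, -1.43 and -1.04 in stn7stn8 replicates 1, 2, 3, 4 and 6, and from -1.67 to -1.27 with a median of -1.53 in WT. The stn7stn8 arrays of AT4G09040 reached both above and below the WT range, and the log2 difference was 0.19 ± 0.17 (SE), which did not pass (limma, adjusted p = 0.405). Single arrays moved this value, to 0.35 without stn7stn8 replicate 1, 0.070 without replicate 2 and 0.12 without replicate 6. The deposited values of AT4G09040 gave 0.75, against a median of 0.50 over all rows, which passed (limma, adjusted p = 0.00284). Its adjusted p ran from 0.00284 to 0.755 across the alternatives. AT1G01080 had -2.77, -2.12, -3.66, -2.64 and -2.58 in the same stn7stn8 replicates, and from -2.72 to -2.18 with a median of -2.54 in WT. Its log2 difference was -0.24 ± 0.22 (SE) and did not pass (limma, adjusted p = 0.411). Much of this came from stn7stn8 replicate 3, the lowest array: without it the log2 difference was -0.016, and without stn7stn8 replicate 2, the highest, -0.39. On the deposited values, where the median over all rows was 0.50, it was 0.37 (limma, adjusted p = 0.209, between 0.147 and 0.944 across the alternatives).

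Among genes with a row of their own, 2 carry the word kinase in their RefSeq symbol or synonyms, and 0 carry protein phosphatase. AT2G23070 itself does not carry the word there, so other protein kinases and phosphatases may be among the named rows unrecognised. Both genes found are metabolic enzymes that phosphorylate small molecules and not proteins. PRK (AT1G32060), the phosphoribulokinase that makes ribulose bisphosphate in the Calvin cycle, fell, and PPDK (AT4G15530), which makes phosphoenolpyruvate from pyruvate, did not pass. Thus 1 of the 2 was called, where 43.3% of all rows passed in either direction and 19.6% were lower. PRK stood at -0.034, 0.14, -0.076, -0.27 and -0.28 in stn7stn8 replicates 1, 2, 3, 4 and 6, and between 0.091 and 0.815 with a median of 0.41 in WT. The groups of PRK overlapped, since stn7stn8 replicate 2 lay above WT replicate 3. By limma the log2 difference of PRK was -0.52 ± 0.14 (SE), with an adjusted p of 0.0101. Its call was lost on the deposited values (-0.30, adjusted p = 0.0607, limma) and with consecutive arrays averaged (-0.51, adjusted p = 0.0682, limma), and across the alternatives the adjusted p ran from 0.00143 to 0.0682.

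PPDK is itself switched off and on by phosphorylation in the plastid, by a regulatory protein that is no CK2. Its log2 intensities were -0.94, -0.72, -1.19, -0.74 and -0.84 in stn7stn8 replicates 1, 2, 3, 4 and 6, and from -0.83 to -0.29 with a median of -0.74 in WT. Only WT replicates 5 and 6 of PPDK, at -0.29 and -0.34, stood clear of the stn7stn8 range. The log2 difference was -0.27 ± 0.13 (SE, limma, adjusted p = 0.116, between 0.061 and 0.384 across the alternatives), and 0.17 on the deposited values, which is also below their median of 0.50 over all rows.

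The 2 measured green tissue genes were PRK and LHB1B2 (AT2G34420), a chlorophyll-binding protein of the light-harvesting antenna that STN7 phosphorylates. LHB1B2 gave bright signals, at the 98.8 percentile of the tested rows in stn7stn8 and the 98.5 in WT. Its log2 intensities were 3.55, 3.65, 3.07, 3.10 and 3.10 in stn7stn8 replicates 1, 2, 3, 4 and 6, and from 2.86 to 3.19 with a median of 3.04 in WT. Only stn7stn8 replicates 1 and 2 stood above the WT range. The log2 difference was 0.26 ± 0.13 (SE), which did not pass (limma, adjusted p = 0.118). Its direction followed the scaling. Centring each array on its median turned it to -0.47 and cyclic loess gave 0.36, and both passed (limma, adjusted p = 0.0268 and 0.0327, within 0.0268 to 0.687 across the alternatives).

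**Figure D5:**
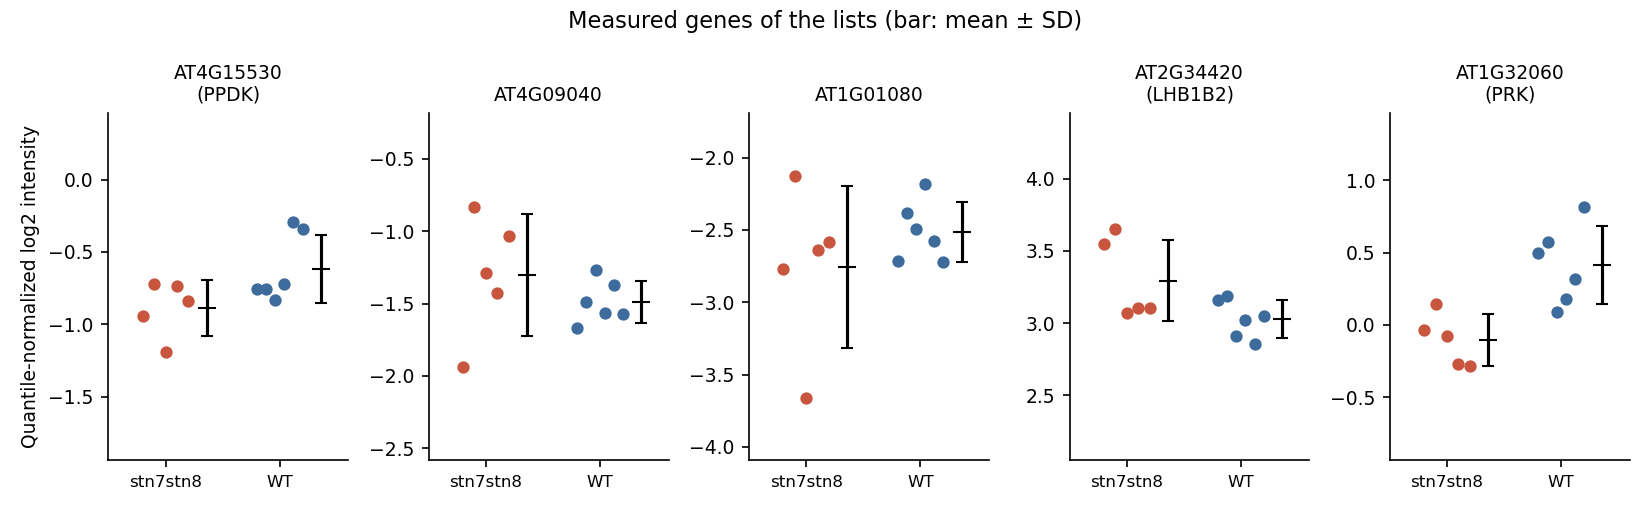
Quantile-normalized log2 intensity of the 5 measured genes of the lists in each stn7stn8 array (n = 5) and WT array (n = 6), with mean ± SD and the same axis length in every panel. The groups overlap in all 5 genes, and the largest difference among them is the lower signal of PRK in stn7stn8 (-0.52).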

How the data were processed

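The authors deposited 1 table of array intensities on a linear scale, per the labels for total RNA. The sources used here do not state array type, scanner, background subtraction or scaling. AT2G23070 and the gene lists were chosen with earlier results of these data known. Identical arrays were averaged. Zeros were treated as missing, intensities were put on the log2 scale and quantile-normalized, because array medians differed by more than 0.1. A row needed 4 values in each group, or, with fewer arrays, values in all but 1. This left 3229 rows, fitted with limma 3.58.1 (lmFit, eBayes, two-sided) in R 4.3.3, with adjustment by Benjamini-Hochberg at 0.05. The fit was also run on simulated data with independent arrays and few changed rows. These data differ in both respects or may do so, so the simulation does not check the calls given here. The number of arrays limits the precision.

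Gene names came from the platform annotation, and 690 of 692 single names matched the TAIR10.1 gene table. That table holds symbols and synonyms but no product names. The word kinase was searched in these, so a kinase gene without it there was not found. No genome build is named, and no coordinates are given. Named are AT2G23070, every tested list member, 3 rows on either side in WT signal and the 5 most similar profiles. AT4G13550, AT1G62780 and AT5G14910 were named after their values were seen. No sequences were used here. Alternatives changed the scaling, the treatment of dim rows and of identical or consecutive arrays, the replicate block, and left out arrays.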

Additional observations from a re-analysis of the deposited data

Results flagged for a closer look

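Chance sets apart 1 array in about 1 of 20 groups of values. For the measured genes named here, except AT5G14910, and for the array measures, 44 groups were examined. A single array lay far from the rest in 2 of them, and neither concerned AT2G23070. AT1G62780 had a normalized log2 intensity of -8.22 in stn7stn8 replicate 3 and between -4.22 and -3.89 in the 3 further stn7stn8 arrays with a value. Without that array its log2 difference was -0.58 in place of -1.63, and it ranked 67 among the named rows. AT1G15410 stood at -1.25 in WT replicate 2 and between -1.51 and -1.43 in the remaining WT arrays.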

How the results depend on the processing

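AT2G23070 was lower in stn7stn8 under all 21 alternatives, and in 19 its log2 difference moved by less than the replicate SD. The exceptions were the deposited values (-1.03) and the array median added to each intensity (-0.58). With single arrays left out it ranged from -1.70 to -1.54. Leaving out WT replicates 5 and 6 together gave -1.64, and stn7stn8 replicates 1 and 2 together -1.49. Both settings were chosen after seeing the data. Of all rows, 766 were called higher and 632 lower, against 1814 and 281 on the deposited values and 404 and 369 with consecutive arrays averaged. In that averaging 6 averages remained. The array shared by stn7stn8 replicates 4 and 5 was averaged there with replicate 6, and stn7stn8 replicate 3 stood alone. With arrays centred on their medians the counts were 631 and 860. The count of genes found by the word kinase and called lower, which was PRK alone, was 1 of the 2 tested. Over all rows 19.6% were called lower. The count of genes found by the word was 0 on the deposited values and with consecutive arrays averaged. On the deposited values PPDK (0.17) and AT1G01080 (0.37) were above 0, but the median over all rows was 0.50 there, against 0.058 after quantile normalization, and both stayed below that median. LHB1B2 was at 0.072 on the deposited values and turned to -0.47 with centred arrays. Centring subtracts the array medians, which were higher in stn7stn8 by 0.54. Why quantile normalization and cyclic loess kept this row above 0 was not tested. With a replicate block the log2 difference of AT2G23070 was -1.59 and 796 rows were called higher and 629 lower. Deviations of same-numbered arrays correlated with r from 0.0094 to 0.23 over 5 pairs, and 4 of 5 stn7stn8 arrays correlated best with their own number. For these correlations the array shared by stn7stn8 replicates 4 and 5 was taken as 4, and no stn7stn8 array was compared with WT replicate 5. Same-numbered arrays may thus have something in common. The labels state no pairing, and the p-values outside the replicate block come from a fit without it.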
